A study of Ananas comosus with 48 samples.

Results

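miR827 is a plant microRNA family (miR) tied to phosphate. The report covers its 2 mature arms listed for pineapple, miR827a-3p and miR827a-5p, which are 2 of 190 listed mature sequences and 2 of the 127 that were counted at all. The arms were taken by name, and they were chosen by their counts in all 16 treatment-by-sampling groups, so every level and difference of the arms is a description and carries no p-value. Both arms passed the filter on low counts, as did 57 sequences in all. Small RNA was sequenced from the shoot apex of field-grown pineapple (Ananas comosus, Cultivar MD1). Ethephon plants received 50 mg of ethephon in 10 ml, injected into the plant centre, and control plants received 10 ml of water. Ethephon breaks down to ethylene, which induces pineapple to flower. Apices are labelled as sampled at 6 hours (6 h), daily from day 1 to day 6, and on day 8. Each treatment and sampling had 3 libraries, and each library pooled 3 apices that still held leaf primordia. By the paper's methods, plants of the 6 h sampling were harvested and chilled the same morning, soon after the injection. Their time in the field after treatment was thus shorter than 6 h. The 6 h marks the end of their dissection, in the afternoon, while apices of the later days were processed by noon. This applied to both treatments, so time of handling and time since treatment cannot be told apart within a treatment.

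A miR is cut as a short duplex from a hairpin RNA, and usually 1 arm is loaded into an ARGONAUTE protein and guides it to matching messenger RNAs, while the other arm is mostly lost. In Arabidopsis, the 3p arm of miR827 acts on NLA, a ubiquitin ligase that removes phosphate transporters from the plasma membrane. In rice, it acts on genes for SPX-MFS proteins, which carry phosphate across the vacuolar membrane. In both plants miR827 rises when phosphate is short. Targets in pineapple and their levels were not analysed here, nor was the genome position of the hairpin.

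The mature sequences are shown because the 2 arms are told apart only by their letters. They are those of the deposited name list, written 5′ to 3′, with the seed (bases 2 to 8) in capitals.
miR827a-3p: uUAGAUGAccaucaacaaaca
miR827a-5p: uUUUGUUGauagucaucuaacc
The 3p arm has 21 bases, 33.3% of them G or C, and the 5p arm has 22 bases, 31.8% of them G or C. Both begin with U. No other listed sequence had the seed of either arm. The nearest listed sequences were miR159e-5p, at 8 edits from the 3p arm, and miR159f-3p, at 9 edits from the 5p arm.

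Folded against each other, the arms formed 18 Watson-Crick pairs with a predicted energy of -22 kcal/mol. In the following lines the capitals mark the paired bases.
miR827a-5p: uUUUGUUGAUaGUCAUCUAAcc
miR827a-3p: UUAGAUGACcAUCAACAAAca
One base inside each arm stayed unpaired (1 in the 5p arm and 1 in the 3p arm), as did the last 2 bases of each arm and the first base of the 5p arm. The 5p arm's 3′ end thus hung over by 2 bases, while at the other end the unpaired first base of the 5p arm faced the unpaired end of the 3p arm.

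miR827a-3p was the more abundant arm. It had 10776 counts over the 48 libraries, 0.366% of all counts in listed miRs, and was the 14th of 127 sequences by total. miR827a-5p had 1098 counts, 0.0373%, and was the 35th. A library held 16 to 738 counts of the 3p arm, with a median of 201, and 1 to 91 counts of the 5p arm, with a median of 18. The 3p arm exceeded the 5p arm in 48 of 48 libraries. Levels are given in counts per 1e6 counts in listed miRs (CPM) after TMM scaling, an edgeR factor for differences in composition. In CPM the 3p arm spanned 584 to 9634 and the 5p arm 16.8 to 1268. The 5p arm had 3 or fewer counts in 5 libraries, all ethephon ones: day 4 replicate 2, day 5 replicate 2, day 6 replicate 3 and day 8 replicates 2 and 3.

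The depth differed somewhat between treatments. Ethephon libraries held 18581 to 91791 counts in listed miRs (median 54545) and water libraries 39324 to 86017 (median 65207.5), out of 10187012 to 19683245 sequencing tags a library. The shallowest library, ethephon day 5 replicate 2, had 18581 counts, and 3 counts corresponded to 29.7 to 140 CPM over the libraries. No miR marks 1 cell type of the pineapple apex for certain, but families known from shoot apices and young leaves of other plants were counted in 48 of 48 libraries. Summed levels of miR394, made in the outer layer of the Arabidopsis apex, were 2293 to 7709 CPM in ethephon and 2777 to 11729 CPM in water libraries. Those of miR166, which sets leaf polarity, were 90250.3 to 191389 CPM and 85092 to 187458 CPM in the ethephon and the water libraries. miR319 and miR396, both of leaf growth, spanned 538 to 1338 CPM and 724 to 3884 CPM in ethephon, and 407.9 to 2221 CPM and 791 to 3787 CPM in water. Of the 12 members tested, 1 was called higher and 3 lower after ethephon by edgeR, against 19.3% called higher and 22.8% called lower of all 57 tested miRs. Their part in the results below was not tested.

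Both arms had higher means in ethephon than in water apices at the 2 earliest samplings, and lower means at the 6 later ones. The largest excess was at 6 h, 2.78-fold for the 3p arm and 2.26-fold for the 5p arm. After day 1 the fitted change of the 5p arm was further below 0 than that of the 3p arm at each sampling. In a bulk apex, fewer cells that make a miR and less of it per cell cannot be told apart.

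At 6 h, miR827a-3p, the arm that acts on phosphate genes in Arabidopsis and rice, stood at 9634, 7688 and 8023 CPM in ethephon libraries, against 3367, 3153 and 2582 CPM in water libraries. Every ethephon library was above every water library. The means were 8448 ± 1041 CPM after ethephon and 3034 ± 406 CPM after water (SD, n = 3 each). The edgeR log2 change, ethephon over water, was 1.48 (SE 0.44).

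On day 1, the 3p arm stood at 5129, 4473 and 3649 CPM after ethephon, against 3324, 3427 and 1229 CPM after water. The ethephon libraries were again all above the water ones, but replicate 1 and replicate 2 of water came close to the lowest ethephon library. That was a log2 change of 0.74 (SE 0.45). On day 2, it stood at 5699.9, 3288 and 3362 CPM after ethephon, against 5643, 4508 and 4007 CPM after water. The libraries overlapped, with a log2 change of -0.20 (SE 0.44), well within the error.

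On day 3, the 3p arm stood at 4203, 2341 and 2756 CPM after ethephon, against 4160.2, 5074 and 8255 CPM after water, and 1 ethephon library reached just past the lowest water library. This gave a log2 change of -0.92 (SE 0.44). On day 4, it stood at 824, 832 and 3651 CPM after ethephon, against 3104, 3524 and 4166 CPM after water. Here 2 ethephon libraries were far below water and the other one lay among the water libraries. The log2 change was -1.02 (SE 0.45), and -2.12 without ethephon replicate 3.

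On day 5, the 3p arm stood at 2355, 747 and 2291 CPM after ethephon, against 2394, 3456 and 2956 CPM after water. All ethephon libraries were below all water ones, 2 of them by little, and the library at 747 CPM, 16 counts, is the shallowest of the study. This was a log2 change of -0.65 (SE 0.46). On day 6, the levels were 4224, 2197 and 584 CPM after ethephon, against 3306, 4504 and 4085 CPM after water. The ethephon libraries were widely scattered, and the log2 change of -0.75 (SE 0.45) became -1.50 without ethephon replicate 1.

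On day 8, the 3p arm stood at 2110.5, 1525 and 1029 CPM after ethephon, against 1629, 1398 and 3126 CPM after water. The libraries overlapped. The log2 change was -0.41 (SE 0.46), and 0.04 without water replicate 3, so no direction can be given for that day. Averaged over the 8 samplings, the 3p arm differed by -0.22 (SE 0.16) on the log2 scale, since the early and late differences had opposite signs. Over all samplings its level was 3442 ± 2412 CPM in ethephon and 3599 ± 1458 CPM in water libraries (SD, n = 24 each).

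**Figure D1:**
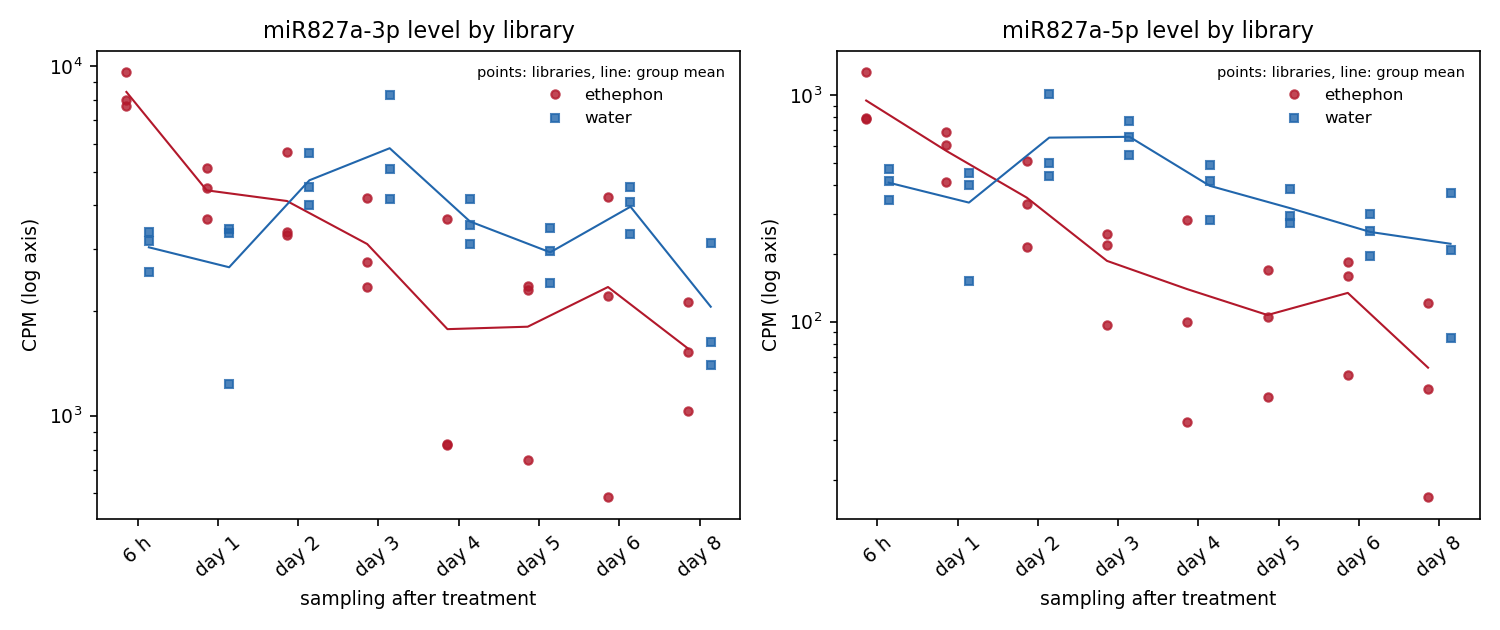
Level of miR827a-3p (left) and miR827a-5p (right) in CPM on a log axis at the 8 samplings, which are drawn evenly spaced. Each point is 1 library and each line joins the means of 3 libraries, ethephon in red circles and water in blue squares. The ethephon libraries at 6 h lie at 7688 to 9634 CPM for the 3p arm and 787 to 1268 CPM for the 5p arm, above all water libraries of that sampling, and the ethephon line crosses below the water line between days 1 and 2 in both panels.

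miR827a-5p, the arm with no established role in Arabidopsis or rice, stood at 1268, 792 and 787 CPM in ethephon libraries at 6 h, against 472, 346 and 416 CPM in water libraries. All ethephon libraries were above all water ones, with 65 to 76 counts after ethephon and 18 to 38 after water. The means were 949 ± 277 CPM after ethephon and 412 ± 63.1 CPM after water (SD, n = 3 each), a log2 change of 1.18 (SE 0.41).

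On day 1, the 5p arm stood at 415, 601 and 687 CPM after ethephon, against 401, 456 and 151 CPM after water. The groups overlapped by 1 library, and the log2 change was 0.76 (SE 0.46). On day 2, it stood at 214, 332 and 515 CPM after ethephon, against 1011, 501 and 439.7 CPM after water. One ethephon library (1 of 3) lay among the water libraries. The fitted log2 change was -0.97 (SE 0.45).

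On day 3, the 5p arm stood at 243, 96.5 and 217 CPM after ethephon, against 653, 767 and 548 CPM after water. The lowest water library was more than double the highest ethephon one. The means were 186 ± 78.3 CPM after ethephon and 656 ± 110 CPM after water (SD, n = 3 each), and the log2 change of -1.79 (SE 0.46) was a level 3.47-fold lower after ethephon. On day 4, it stood at 99.5, 36.2 and 282 CPM after ethephon, against 419, 282 and 494 CPM after water. The ethephon library at 282 CPM, replicate 3, was the one in which the 3p arm was high as well. The log2 change was -1.50 (SE 0.50), and -2.46 without that library.

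On day 5, the 5p arm stood at 105, 46.7 and 169.7 CPM after ethephon, from 6, 1 and 8 counts, against 274, 294 and 385 CPM after water. All ethephon libraries were below all water ones, and the log2 change was -1.43 (SE 0.57). On day 6, the levels were 184, 159 and 58.4 CPM after ethephon, against 253, 300.3 and 195 CPM after water. They did not overlap either, though the highest ethephon and the lowest water library were close. The log2 change was -0.84 (SE 0.54).

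On day 8, the 5p arm stood at 121, 16.8 and 50.6 CPM after ethephon, from 6, 1 and 3 counts, against 84.6, 208 and 370.0 CPM after water. The ethephon libraries overlapped the lowest water library. The log2 change of -1.91 (SE 0.62), or -2.71 without ethephon replicate 1, rests on 10 ethephon counts in all. Averaged over the 8 samplings, the 5p arm was 1.76-fold lower after ethephon, a log2 change of -0.81 (SE 0.18). Its level was 312 ± 314 CPM in ethephon and 405 ± 202 CPM in water libraries (SD, n = 24 each).

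**Figure D2:**
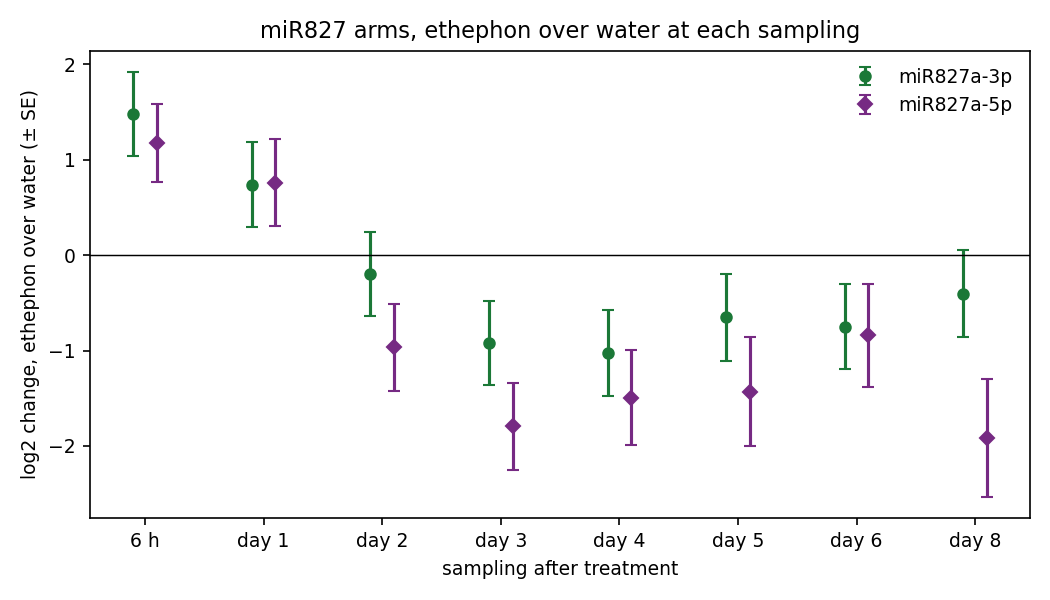
The log2 change of each arm, ethephon over water, at the 8 samplings, with bars of 1 SE from the edgeR fit (miR827a-3p in green circles, miR827a-5p in purple diamonds). Both arms lie above 0 at 6 h (1.48 and 1.18) and day 1 and below 0 from day 2, where the 5p arm is the lower one at each sampling, at -1.79 on day 3 and -1.91 on day 8.

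For the 3p arm, all ethephon libraries lay above all water libraries at 2 samplings and below them at 1, and the libraries overlapped at 5. For the 5p arm this was so at 1 and 3 samplings, with 4 overlapping. Over all tested miRs and samplings, 10.3% of the 456 cases had every ethephon library above and 15.8% every ethephon library below. The counts were used to choose the arms, and nothing is read from this difference. On 5 of 5 scales for library size, the separation held at 6 h for both arms (above) and on days 3 and 5 for the 5p arm (below). That of the 3p arm on day 1 held on 3 scales and that on day 5 on 2, and that of the 5p arm on day 6 held on 3. Conversely, where the libraries overlapped after TMM scaling, those of the 5p arm were apart on day 1 (above) on 3 scales, on day 4 (below) on 2 and on day 2 (below) on 1, and those of the 3p arm on day 4 (below) on 1. Relative to TMM, scaling to all sequencing tags shifted the log2 changes of all tested miRs, by a median of -0.52 on day 2. The median shift was -0.32 on day 4 and -0.40 on day 5, but upward on day 3, at 0.35.

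The order of the samplings differed between the treatments. After ethephon both arms were highest at 6 h and next highest on day 1, and day 8 was lowest. The 3p arm at 6 h had no library in common with the range of any other ethephon sampling, while its 6 other steps from 1 mean to the next lower one, 4417 ± 742 CPM on day 1 to 1555 ± 541 CPM on day 8, were smaller than the larger SD of the neighbours (SD, n = 3 each). For the 5p arm, 3 of 7 steps were larger than that SD, those between 6 h, day 1, day 2 and day 3. Of these, only the step from 6 h to day 1 had no overlap of libraries. The log2 change of day 8 over 6 h was -2.44 (SE 0.46) for the 3p arm and -3.93 (SE 0.55) for the 5p arm after ethephon. After water it was -0.56 (SE 0.44) for the 3p arm and -0.84 (SE 0.45) for the 5p arm.

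In water apices days 2 and 3 were highest for both arms, and for the 5p arm day 2 rather than day 3 came first on 4 of 5 scales. The 3p arm averaged 5830 ± 2149 CPM on day 3 and 4719 ± 838 CPM on day 2, and then came day 6, day 4, 6 h, day 5, day 1 and day 8. The 5p arm averaged 656 ± 110 CPM on day 3 and 650.5 ± 314 CPM on day 2, followed by 6 h, day 4, day 1, day 5, day 6 and day 8 (SD, n = 3 each). In each arm 1 of 7 neighbouring steps exceeded the larger SD, day 4 to 6 h for the 3p arm and day 5 to day 6 for the 5p arm. The libraries overlapped at both of these steps as well, and the order of the other neighbours is not resolved. Days 2 and 3 were the 2 highest in water on 5 of 5 scales, and 6 h was the highest in ethephon on all of them. The lowest sampling in water changed with the scale, and after ethephon it was day 8 except for the 3p arm with no composition factor, where it was day 5.

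The arms were then compared within libraries, a ratio that no library scaling can alter. Ethephon libraries had 5312 counts of the 3p arm and 473 of the 5p arm, and water libraries 5464 and 625. The median ratio of the 3p to the 5p count was 13.2 in ethephon (5.31 to 91) and 8.44 in water libraries (5.58 to 21), over 24 libraries each. The mean log2 ratio was 3.71 ± 0.78 after ethephon and 3.18 ± 0.50 after water (SD, n = 24 each). The difference, averaged over samplings, was 0.53 (SE 0.17). The ratio was thus higher after ethephon, where the 5p arm was the one further below water.

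At 6 h, when both arms were above water, the 5p arm made up 9.86% of the summed counts of both arms after ethephon (exact 95% binomial interval 8.63 to 11.2%) and 12.2% after water (9.98 to 14.8%). On day 3, it made up 5.67% after ethephon (4.21 to 7.45%) and 9.06% after water (7.45 to 10.9%). On day 8, it made up 3.75% after ethephon (1.81 to 6.78%), 10 of 267 counts, and 10.4% after water (7.94 to 13.4%), 54 of 517 counts. The shares were close on day 1 (11.1% after ethephon, 11.2% after water) and day 6 (5.24% and 5.87%). On days 2, 4 and 5 the share was lower after ethephon. The intervals pool the counts of 3 libraries and cover counting error only, and reads are not independent molecules.

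Per sampling the log2 ratio differed, ethephon minus water, by 0.31 at 6 h, 0.01 on day 1, 0.61 on day 2, 0.99 on day 3, 0.43 on day 4, 0.66 on day 5, -0.18 on day 6 and 1.40 on day 8 (SE 0.48 each). That SE rests on 1 SD pooled over the groups, 0.59. The group SDs ran from 0.07 (water, day 1) to 1.07 (ethephon, day 8), so the day 8 difference is less certain than its SE states. The ratio was higher after ethephon at 7 of 8 samplings, but the libraries overlapped at every sampling, and the larger differences shrank when replicates or libraries were left out, to 0.58 on day 3 and 0.50 on day 8 at the lowest. On day 6 its sign was the opposite of that between the fitted changes of the arms. Single libraries weigh on it: the day 8 value was 0.78 without ethephon replicate 2, which had 91 counts of the 3p arm and 1 of the 5p arm. Without ethephon replicate 1, the day 1 value was -0.31, and without ethephon replicate 3, the day 6 value was 0.14.

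**Figure D3:**
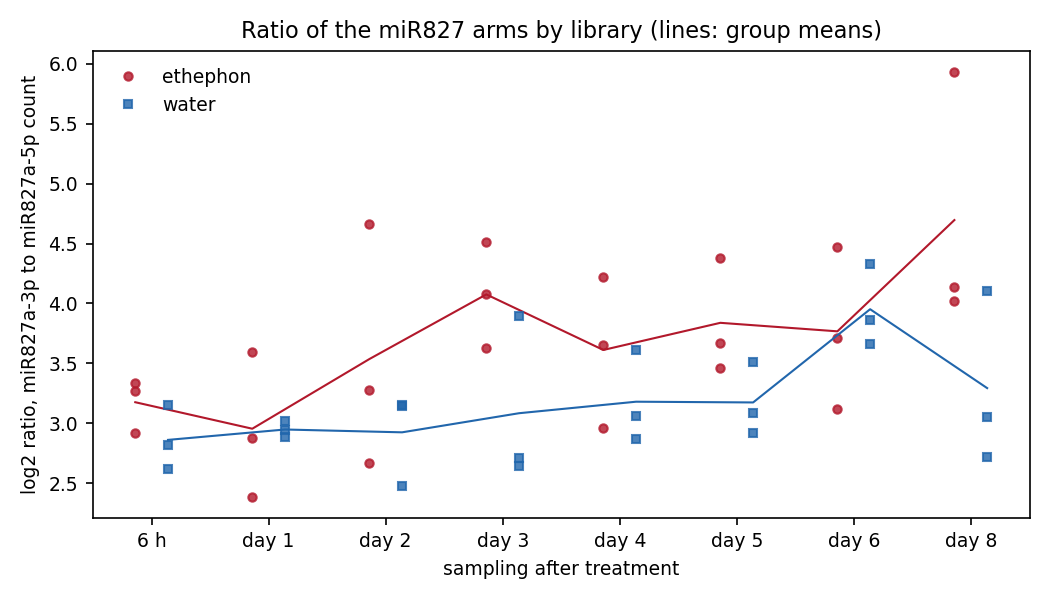
The log2 ratio of the miR827a-3p count to the miR827a-5p count (0.5 added to each) in every library at the 8 samplings, ethephon in red circles and water in blue squares, with lines through the group means. All points are above 0, so the 3p arm is the more counted one in every library, and the ethephon mean is higher than the water mean at 7 of 8 samplings, by 1.40 on day 8, with overlapping libraries throughout.

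The 2 arms moved together over the samplings. Over the 16 group means of log2 CPM, Pearson's r was 0.92 and Spearman's rho 0.92 (r 0.90 without the 2 groups farthest from the median), and over the 48 libraries r was 0.83 and rho 0.78. Within groups, the deviations from the group mean had r = 0.64 over the 48 libraries, so a library high in 1 arm tended to be high in the other. The arms share each library and its depth, and these values are descriptions without a test.

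**Figure D4:**
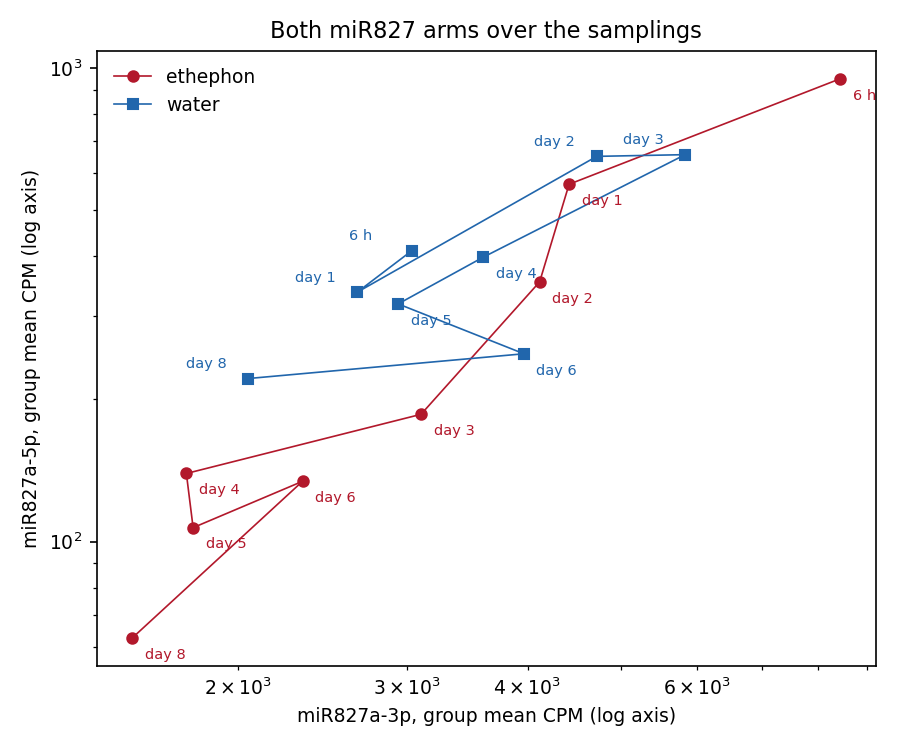
Group mean CPM of miR827a-5p (vertical) against miR827a-3p (horizontal), both on log axes, with lines in the order of sampling, ethephon in red circles and water in blue squares. The ethephon line starts at 8448 and 949 CPM at 6 h and ends at 1555 and 62.7 CPM on day 8, while the water line stays within 2051 to 5830 CPM of the 3p arm and 221 to 656 CPM of the 5p arm.

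Among the 55 other tested miRs, the same 3 followed the arms most closely over the 16 group means of log2 CPM. For the 3p arm, Pearson's r was 0.61 for miR171f-3p, 0.57 for miR166a-3p and 0.52 for miR164c-3p, and for the 5p arm 0.74 for miR171f-3p, 0.66 for miR164c-3p and 0.61 for miR166a-3p. In other plants miR171 acts on HAIRY MERISTEM genes of the shoot apex, miR166 on leaf polarity genes and the 5p strand of miR164 on CUP-SHAPED COTYLEDON genes of organ boundaries. The median r over the 55 miRs was 0.03 for the 3p arm and -0.06 for the 5p arm. All 3 values were below the r of the arms with each other (0.92). In the 8 ethephon groups alone, miR160d-5p followed both arms most closely, with r 0.82 for the 3p arm and 0.88 for the 5p arm. There, r with the 3p arm was 0.76 for miR171f-3p, 0.78 for miR166a-3p and 0.56 for miR164c-3p. With the 5p arm it was 0.76, 0.64 and 0.59 for the same miRs. Over the 48 libraries, r of miR164c-3p was 0.21 with the 3p arm and 0.35 with the 5p arm. In the 8 water groups alone, the r of the arms with each other was 0.81, or 0.49 without the 2 farthest groups. There, other miRs followed an arm more closely, chosen here after their values were seen: miR171c-3p (0.92), miR390a-3p (0.91) and miR390a-5p (0.82) for the 5p arm and miR167a-5p (0.84) for the 3p arm. In the same water groups, r with the 3p arm was only 0.27 for miR171f-3p, 0.31 for miR166a-3p and 0.30 for miR164c-3p, and with the 5p arm it was 0.60, 0.63 and 0.58 for the same miRs.

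The early excess of the arms was not seen in miR171f-3p, where the means at 6 h differed by less than their SD. It averaged 1576 ± 585 CPM at 6 h after ethephon and 2021 ± 514 CPM after water, and 975 ± 433 CPM on day 8 after ethephon and 1052 ± 215 CPM after water (SD, n = 3 each).

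Other miRs of mineral nutrition were compared, from a list that holds the families of phosphate (miR399, miR778, miR2111), sulfate (miR395), copper (miR397, miR398, miR408, miR528, miR857) and nitrogen (miR169, miR393, miR444, miR826, miR5090). Of 53 listed sequences of these families, 29 had a count and 6 passed the filter. In the edgeR quasi-likelihood test of the difference averaged over samplings, 1 of the 6 was up-regulated and 0 were down-regulated (0 as well at an unadjusted p under 0.05, and 0 by DESeq2 and by limma-voom). Of all 57 tested miRs, 19.3% were called higher and 22.8% lower, so this share is near the background. The F test of the 8 differences together called 1 of the 6, against 38.6% of all tested miRs. The median log2 change of the 6 was -0.03, that of all tested miRs -0.05.

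The phosphate miR closest to miR827 in function, miR399, which acts on PHO2 in Arabidopsis and so on phosphate uptake, was counted rarely. Its 14 listed sequences had 247 counts together, and 226 of them were of miR399a-3p, at 75.8 ± 52.0 CPM in ethephon and 75.3 ± 48.9 CPM in water libraries (SD, n = 24 each). Its log2 change was -0.06 (SE 0.27, edgeR adjusted p = 0.894). At 6 h, the log2 change was 1.48 (SE 0.44) for miR827a-3p and 0.18 (SE 0.62) for miR399a-3p. The mean levels of miR399a-3p lay within the 29.7 to 140 CPM of 3 counts, so a change at 6 h is poorly resolved. No sequence of miR778 or miR2111 was among those analysed here, and miR395, of sulfate, had 67 counts over 8 listed sequences, too few for the test.

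The member that passed was miR528a-5p, of a grass and monocot family that acts on copper proteins in rice and maize. It averaged 722 ± 450 CPM in ethephon and 526 ± 345 CPM in water libraries (SD, n = 24 each), a log2 change of 0.48 (SE 0.18, edgeR adjusted p = 0.0287), higher at 6 of 8 samplings. The call was lost when the libraries were scaled to all tags (adjusted p = 0.139), with limma-voom (adjusted p = 0.0540) and without replicate 1 (0.18, adjusted p = 0.485) or replicate 2 (0.44, adjusted p = 0.204) of each group. miR528c-3p, a 3p arm of that family, had a log2 change of 0.18 (SE 0.30, adjusted p = 0.671).

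The other tested members were miR408a-3p, which acts on copper proteins such as plantacyanin, and miR393a-5p and miR393b-5p, which act on auxin receptors and are linked to nitrate. Their log2 changes were -0.04, -0.02 and -0.03, and none passed the edgeR test. The counts of both miR393 sequences were nearly the same (342 and 341), so they are hardly separate measurements.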

How the data were processed

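Small RNA libraries from 48 apex samples were read to 50 nt. Per the study's methods, the authors trimmed adapters, collapsed identical reads and aligned the unique sequences to mature miRs of miRBase v22. For this small RNA step, the aligner and mismatch limit are not given in the sources. The deposited table holds raw counts for 190 mature sequences in each library and, as a score, the same counts per 10000000 tags, rounded by the authors. The tags of each library were recovered from both (9120 of 9120 scores came back to within 0.51, with the tags fitted to the same scores). The deposited name list gives other text only, sequences and miR names.

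Counts were fitted in edgeR 4.0.16 (R 4.3.3) with quasi-likelihood, 1 mean for each of 16 groups, TMM factors and filterByExpr (minimum count 10, minimum total 15), which kept 57 sequences. Ethephon was set against water within every sampling and over the mean of all samplings. p-values were Benjamini-Hochberg adjusted over the 57 with a threshold of 0.05. The SE of the log2 changes came from the quasi-likelihood F. The ratio of arms used a pseudocount of 0.5, and its SEs came from 1 SD pooled over the 16 groups. Duplexes were folded with RNAcofold (ViennaRNA 2.7.2).

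The arms, their list and the tests were chosen with earlier results of these data known. Named miRs are both arms, the tested members of the nutrient list and, for each arm, the 3 with the highest Pearson r over 16 group means. Groups followed the sample titles. Replicates of a group differed by 7.00 to 141 times sampling noise (chi-square per degree of freedom, 48 pairs), so none was a duplicate. Alternatives were RLE factors, no factor, all tags, TMM without the top miR, no filter, DESeq2 1.42.0, limma-voom (limma 3.58.1), a replicate block, 1 sampling alone and left-out replicates. The check of overlap on other scales was chosen after seeing the data.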

Additional observations from a re-analysis of the deposited data

Results flagged for a closer look

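In 4 pairs of samplings, 1 of them in both arms, every ethephon library lay above every water library at 1 sampling and below every one at the other. The difference between the samplings was not tested. The share of such pairs over all tested miRs was not counted, and nothing is read from their number. Of the separations used, those at 6 h and those of the 5p arm on days 3 and 5 held on 5 of 5 scales. That of the 3p arm on day 1 held on 3 scales and that on day 5 on 2, and that of the 5p arm on day 6 on 3. For miR827a-3p, the log2 change (ethephon over water) at 6 h exceeded that on day 5 by 2.13, and that on day 1 exceeded that on day 5 by 1.39. For miR827a-5p, the log2 change at 6 h exceeded that on day 3 by 2.97, that on day 5 by 2.61 and that on day 6 by 2.02.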

How the results depend on the processing

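The direction of the difference of each arm at each sampling was kept under every alternative run, with 1 exception: miR827a-3p on day 8. Averaged over samplings, the change of miR827a-3p was -0.46 to -0.07 and that of miR827a-5p -0.97 to -0.64 with replicates or single libraries left out, and -0.35 to -0.10 and -0.96 to -0.71 under the other alternatives. With replicates or single libraries left out, the log2 change of miR827a-3p ranged from -2.12 to -0.68 on day 4, -1.62 to -0.20 on day 6 and -0.82 to 0.29 on day 8. That of miR827a-5p ranged from -1.50 to -0.21 on day 2, -2.46 to -1.08 on day 4 and -3.01 to -1.27 on day 8. The log2 ratio difference ranged from -0.18 to 1.16 on day 2, 0.58 to 1.62 on day 3 and 0.50 to 2.15 on day 8. Scaled to all tags, miR827a-5p on day 2 was at -1.61, the nutrient list had 0 members called higher and 0 by the F test, and 6 miRs of all were called higher, against 11. With limma-voom the nutrient list had 0 called higher. With a replicate left out, it had 0 to 1 called higher and 0 to 1 by the F test, and the F test called 12 to 15 of all miRs, against 22. The cause of these shifts was not tested.

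The field plot held 3 replications with both treatments, but the labels do not tie library numbers to them. Same-numbered libraries did not deviate together (correlation -0.38 to 0.36, median 0.03, over 0.1 in 7 of 24 pairs). With the replicate block, the averaged change was -0.24 for miR827a-3p and -0.82 for miR827a-5p, and 24 of 24 averaged calls were shared. Of the libraries, 9 of 24 pairs correlated best with their own number. The 5p arm rests on few counts in the later ethephon libraries, 10 in all on day 8, which limits its values and the ratio there.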
